A study of Drosophila melanogaster with 6 samples.

Results

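The genes described here encode the enzymes that break down phenylalanine and tyrosine. They were found by the gene names of the deposited table, and 5 of the 6 names searched gave a row of the 13035 genes listed. The sixth name, CG14993, is the annotation symbol of fumarylacetoacetase, which the table lists as Faa. The measurements are RNA-seq of poly(A)-selected RNA from whole male Drosophila melanogaster on day 6 of adult life, with 3 dERR mutant libraries and 3 control libraries. Flies of both groups had the genotype yw, hsFLP with dERR[conditional] over dERR2, so the controls too carried 1 mutant copy of the gene for the estrogen-related receptor (ERR), a nuclear receptor known as a regulator of energy metabolism. The mutant flies received 1 h of heat on days 5 and 6 after egg laying, which switched on the FLP recombinase from its heat-shock promoter, and the control flies were not heated. An effect of the heat and an effect of the loss of ERR therefore cannot be told apart in this design. Nothing in the labels says whether the libraries of a group came from separate cultures, so the p-values measure the spread between these libraries, which may be technical.

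Animals break down surplus phenylalanine and tyrosine in a chain of steps that ends in fumarate, an intermediate of the citric acid cycle, and acetoacetate, a ketone body. Phenylalanine hydroxylase (Henna, Hn) makes tyrosine with the help of the cofactor tetrahydrobiopterin, and in flies the same enzyme also hydroxylates tryptophan. Tyrosine aminotransferase (CG1461, now Tat), 4-hydroxyphenylpyruvate dioxygenase (CG11796, now Hpd), homogentisate 1,2-dioxygenase (hgo), a maleylacetoacetate isomerase and fumarylacetoacetase (Faa) then act in that order. In humans, inherited loss of these enzymes causes phenylketonuria, the tyrosinemias and alkaptonuria. In insects tyrosine is also the starting material for dopamine, melanin and the cross-linking of the cuticle.

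The entry enzyme and a later enzyme of the pathway changed in opposite directions. In mutant flies Hn, the enzyme that feeds the pathway, fell by 28.3%, while CG11796 rose 1.37-fold. The other 3 enzymes of tyrosine breakdown, CG1461, hgo and Faa, had positive changes of 1.21-fold to 1.28-fold that did not pass the test. With limma on log2(normalized count + 1) and Benjamini-Hochberg adjustment over all genes, 2 of the 5 genes had an adjusted p under 0.05, 1 higher and 1 lower. Among all genes, 14.2% passed, 4.73% higher and 9.47% lower. The median log2 change was 0.29 over the 5 genes and 0.00 over all 13035 genes. All 5 genes had an unadjusted p under 0.05, as 26.7% of all genes did.

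Hn (FBgn0001208) lies on chromosome arm 3L, 7753576 to 7756268, in the dm3 coordinates of the table. Its normalized counts were 2109, 1722 and 1721 in the mutant libraries, against 2779, 2302 and 2648 in the control libraries. Every mutant library was below every control library. The means were 1851 ± 224 in mutant and 2576 ± 246 in control flies (SD, n = 3 each). The log2 change was -0.48 ± 0.10 (SE; adjusted p = 0.00791, limma). The fall passed the test under each of the 15 alternative settings and left-out libraries tried, with log2 changes from -0.64 to -0.39. In the authors' deposited table Hn had a maximum likelihood log2 fold change of -0.48 and an adjusted p of 1.68e-04 from DESeq2.

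CG1461 (FBgn0030558; X, 14155255 to 14158879, dm3) encodes the aminotransferase that takes the amino group off tyrosine. Its normalized counts were 2888, 2653 and 2281 in the mutant libraries, against 2010, 1879 and 2595 in the control libraries. The groups overlapped, since control replicate 3 stood above mutant replicate 3. The log2 change of 0.28 ± 0.12 (SE) did not pass the test (adjusted p = 0.178, limma), and its 95% interval ran from 0.01 to 0.55. Without control replicate 3 the gene passed, at 0.42 ± 0.11 (SE; adjusted p = 0.0412, limma).

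CG11796 (FBgn0036992; 3L, 20431265 to 20432972, dm3) encodes the dioxygenase that turns 4-hydroxyphenylpyruvate into homogentisate. It had the highest normalized counts of the 5 genes, 5378, 4898 and 4592 in the mutant libraries, against 3209, 3441 and 4232 in the control libraries. All mutant libraries stood above all control libraries, with control replicate 3 nearest to the mutant group. The means were 4956 ± 396 in mutant and 3627 ± 537 in control flies (SD, n = 3 each). The log2 change was 0.46 ± 0.11 (SE; adjusted p = 0.0138, limma). The call was close to the threshold in limma and was lost when any of 3 libraries was left out: mutant replicate 1 (adjusted p = 0.0537), control replicate 1 (0.0578) or control replicate 2 (0.0526). It was also lost when values were scaled to ribosomal protein genes (log2 change 0.30, adjusted p = 0.154, limma). In the authors' deposited table the gene had a maximum likelihood log2 fold change of 0.45 and an adjusted p of 5.55e-04.

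The gene hgo (FBgn0040211; 2L, 11136394 to 11138567, dm3) encodes the dioxygenase that opens the ring of homogentisate. Its normalized counts were 1375, 1506 and 1111 in the mutant libraries, against 988, 959 and 1162 in the control libraries. Mutant replicate 3 was below control replicate 3, and the other mutant libraries were above all controls. The log2 change of 0.35 ± 0.12 (SE) did not pass (adjusted p = 0.0685, limma), with a 95% interval from 0.10 to 0.61. The call depended on the scaling and on a library: hgo passed with scaling to library size (adjusted p = 0.0288, limma), with upper-quartile scaling (adjusted p = 0.041, limma), with quantile normalization (adjusted p = 0.0478, limma) and without mutant replicate 3 (adjusted p = 0.0153, limma). The authors' deposited table gave hgo an adjusted p of 0.0253.

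Faa (FBgn0016013; 3L, 4072031 to 4073954, dm3) encodes the last enzyme, which splits fumarylacetoacetate into fumarate and acetoacetate. Its normalized counts were 640, 491 and 433 in the mutant libraries, against 407, 409 and 445 in the control libraries. The highest value came from mutant replicate 1, and mutant replicate 3 lay below control replicate 3. The log2 change of 0.29 ± 0.13 (SE) did not pass (adjusted p = 0.171, limma), with a 95% interval from 0.01 to 0.57. Without mutant replicate 1 it was 0.13. In the authors' deposited table Faa and CG1461 had adjusted p-values of 0.142 and 0.152.

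Between hgo and Faa act the maleylacetoacetate isomerases, which were not among the names searched and are given as the neighbouring step. The table holds both fly genes of this step, CG9363 (now GstZ2) and CG9362 (now GstZ1), members of the zeta class of glutathione S-transferases that lie next to each other on arm 3R. CG9363 had normalized counts of 599, 530 and 512 in the mutant libraries, against 368, 348 and 348 in the control libraries, with no overlap. It rose by 0.62 ± 0.09 on the log2 scale (SE; adjusted p = 6.32e-04, limma), and it passed under each of the 15 alternatives tried. CG9362 had 54.8, 58.7 and 72.7 normalized counts in the mutant libraries, against 68.3, 54.6 and 58.4 in the control libraries. Its log2 change was 0.03 ± 0.16 (SE), with a 95% interval from -0.32 to 0.39. Reads shared between these related genes could have been split between them by the authors' counting.

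**Figure D1:**
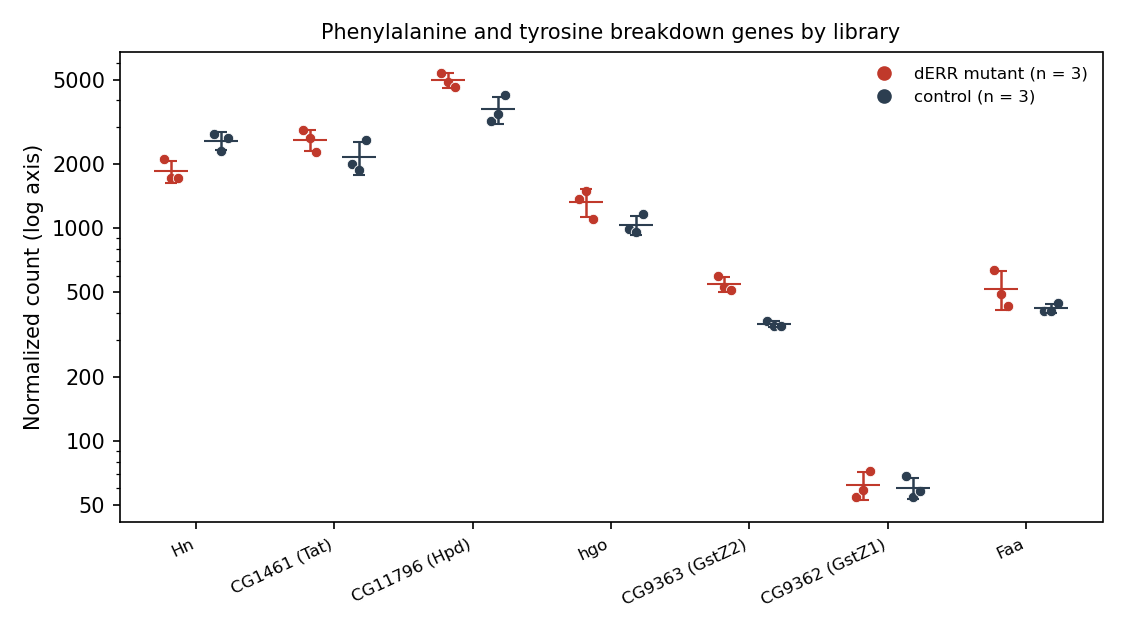
Normalized counts (log axis) of the 5 breakdown genes and the 2 maleylacetoacetate isomerases, in pathway order, with dERR mutant libraries left of control libraries. Points are libraries and bars the mean ± SD (n = 3 each); the groups do not overlap for Hn (mutant lower), CG11796 and CG9363 (mutant higher).

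The order of the libraries was shared only in part, and how often all genes showed it was not counted. Mutant replicate 3 had the lowest value of its group for each of the 5 genes and for CG9363, although for Hn it was level with mutant replicate 2. Control replicate 3 had the highest value of its group for CG1461, CG11796, hgo and Faa, and control replicate 1 the highest for Hn. These 2 libraries produced the overlaps described above for CG1461, hgo and Faa. Over the 5 genes, 1 had all mutant libraries above all controls and 1 had all below. Of all genes, 32.6% had groups that did not overlap, 15.7% with the mutant higher and 16.9% with the mutant lower.

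Ratios within a library do not depend on how the libraries were scaled. The 5 ratios to Hn all have Hn, which fell, as their denominator. They therefore restate the changes given above and are not 5 separate results. The ratio of CG11796 to Hn was 2.55, 2.84 and 2.67 in the mutant libraries, against 1.15, 1.49 and 1.6 in the control libraries. Each mutant library was above each control library, with means of 2.69 ± 0.148 in mutant and 1.42 ± 0.232 in control flies (SD, n = 3 each). For CG1461 the ratio to Hn averaged 1.41 ± 0.114 in mutant and 0.84 ± 0.13 in control flies. For hgo it averaged 0.724 ± 0.13 in mutant and 0.404 ± 0.043 in control flies. For Faa it averaged 0.28 ± 0.0263 in mutant and 0.164 ± 0.0161 in control flies, and for CG9363 0.296 ± 0.0119 in mutant and 0.138 ± 0.0111 in control flies (SD, n = 3 each). In all 5 ratios to Hn the groups did not overlap, with log2 differences from 0.76 for CG1461 to 1.10 for CG9363. Hn itself had groups that did not overlap, and the share of all genes with such a ratio to Hn was not counted. The separation therefore cannot be read as particular to these genes. Two-sided exact permutation over the 6 libraries gave p = 0.10 for each, the smallest value that 3 against 3 libraries allow, and 0.17 adjusted over the 12 ratios computed, which were chosen after the data were seen.

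**Figure D2:**
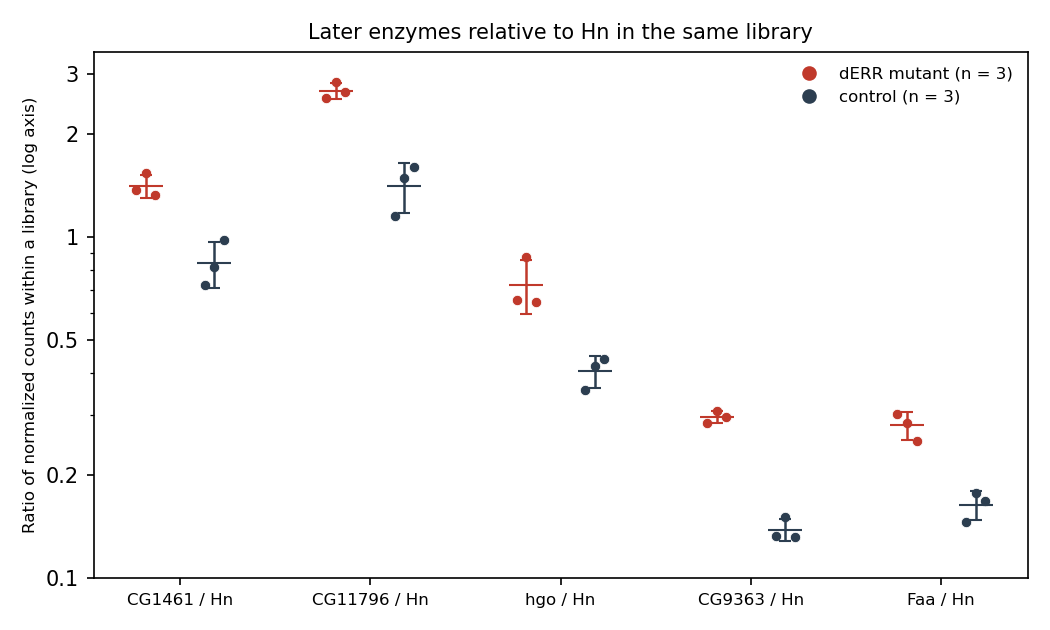
Ratio of each later enzyme's normalized count to that of Hn in the same library (log axis), dERR mutant left of control. Points are libraries and bars the mean ± SD (n = 3 each); in all 5 ratios the mutant libraries lie above the control libraries.

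Among themselves the later enzymes held closer proportions. The ratio of hgo to CG11796 was 0.268 ± 0.0345 in mutant and 0.287 ± 0.0182 in control flies, and that of Faa to CG11796 was 0.105 ± 0.0129 in mutant and 0.117 ± 0.0109 in control flies (SD, n = 3 each). The ratio of CG9363 to CG11796 was 0.11 ± 0.00183 in mutant and 0.0994 ± 0.0163 in control flies. In these 3 ratios the groups overlapped (log2 differences of -0.10, -0.16 and 0.16). The ratio of CG1461 to CG11796 was the exception, at 0.525 ± 0.0247 in mutant and 0.595 ± 0.043 in control flies (log2 difference -0.18). Its groups were separated only narrowly, with 0.542 in mutant replicate 2 against 0.546 in control replicate 2. Exact permutation gave p = 0.10, the smallest value possible, and 0.17 adjusted over the 12 ratios. The genes were also set side by side as normalized counts per kilobase of annotated exon, with exon lengths from the BDGP6 annotation. In mutant flies the order was CG11796 (3265 ± 261), CG1461 (1039 ± 122), hgo (921 ± 139), Hn (875 ± 106), Faa (367 ± 75.2), CG9363 (235 ± 19.8) and CG9362 (68 ± 10.3; counts per kilobase, SD, n = 3). In control flies it was CG11796 (2390 ± 354), Hn (1218 ± 116), CG1461 (861 ± 152), hgo (717 ± 75.8), Faa (296 ± 15.1), CG9363 (153 ± 4.95) and CG9362 (66.2 ± 7.74; counts per kilobase, SD, n = 3). Per kilobase, Hn was below CG1461 in each of the 3 mutant libraries and above it in each of the 3 control libraries. Against hgo, Hn was lower in 1 mutant library (replicate 2) and higher in the other mutant libraries and in every control library.

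Hn needs tetrahydrobiopterin, and the enzymes that make and recycle it moved unevenly. Of the 5 genes of this list 2 fell and 0 rose, with a median log2 change of -0.04. Dihydropteridine reductase (Dhpr), which regenerates the cofactor after each round of hydroxylation, averaged 427 ± 36.6 normalized counts in mutant and 544 ± 51.8 in control flies, with -0.35 ± 0.10 as its log2 change (SE; adjusted p = 0.0387, limma). Sepiapterin reductase (Sptr), which acts in the last step of its synthesis, averaged 177 ± 12.4 in mutant and 227 ± 18.8 in control flies, also with -0.35 ± 0.10 (log2, SE; adjusted p = 0.0479, limma). GTP cyclohydrolase I (Pu), pr and Pcd had log2 changes of -0.04, 0.00 and 0.08 and did not pass. Both calls were close to the threshold: 0 of the 5 genes were called lower with scaling to library size, upper-quartile scaling or quantile normalization, and without mutant replicate 1, mutant replicate 3 or control replicate 3, and 1 without each of the other libraries. The ratio of Dhpr to Hn was 0.233 ± 0.034 in mutant and 0.211 ± 0.00923 in control flies, with overlapping groups.

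On the other route of tyrosine, to dopamine, other amines, melanin and cuticle, 5 of 15 measured genes fell and 0 rose. Their median log2 change was -0.11, and by the same test 9.47% of all genes were lower and 4.73% higher. Tyrosine hydroxylase (ple), which commits tyrosine to dopamine, averaged 1161 ± 143 normalized counts in mutant and 2276 ± 316 in control flies, with -0.97 ± 0.11 as its log2 change (SE; adjusted p = 1.84e-04, limma). Ebony (e), which couples dopamine to beta-alanine, averaged 229 ± 26.1 in mutant and 420 ± 88.9 in control flies (log2 change -0.86 ± 0.15, SE; adjusted p = 0.00277, limma). The prophenoloxidase PO45 (now PPO2), a melanin enzyme of blood cells, changed by -1.03 ± 0.22, the dopachrome enzyme gene yellow-f2 by -0.37 ± 0.11 and the dopamine N-acetyltransferase Dat by -0.31 ± 0.09 (log2, SE). Dopa decarboxylase (Ddc) had a log2 change of 0.03 ± 0.07 and the tyrosine decarboxylase Tdc1 one of 0.10 ± 0.09 (SE). The number lower was 3 with scaling to library size, upper-quartile scaling, quantile normalization and without control replicate 3, 2 without control replicate 1, and 7 under the ribosomal protein scaling, while ple and e passed under all 15 alternatives. Hn, ple and the neuronal tryptophan hydroxylase Trh form 1 enzyme family, and Trh, added after its values were seen, had 77.9 ± 14 normalized counts in mutant and 81 ± 2.06 in control flies (log2 change -0.07 ± 0.15, SE).

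Breakdown of other amino acids was measured for comparison. Among all genes 9.47% were called lower and 4.73% higher. In the tryptophan list 1 of 3 measured genes fell: vermilion (v), the tryptophan 2,3-dioxygenase, averaged 290 ± 30.6 normalized counts in mutant and 500.0 ± 44 in control flies (log2 change -0.79 ± 0.10, SE; adjusted p = 4.01e-04, limma). The list's median was -0.13, and 2 genes were called lower with scaling to ribosomal protein genes. In branched-chain amino acid breakdown 1 of 11 genes rose and 3 fell, with a median of -0.24. The aminotransferase CG1673 (now Bcat) averaged 1766 ± 155 normalized counts in mutant and 1150.0 ± 155 in control flies (log2 change 0.62 ± 0.10, SE; adjusted p = 0.00203, limma). The 3-hydroxyisobutyrate dehydrogenase CG15093 changed by -0.68 ± 0.08, the isovaleryl-CoA dehydrogenase CG6638 by -0.32 ± 0.08 and the 3-hydroxyisobutyryl-CoA hydrolase CG5044 (now Hibch) by -0.27 ± 0.07 (log2, SE). The number lower was 1 with scaling to library size, without mutant replicate 3 and without control replicate 3, and 7 under the ribosomal protein scaling. For the use of acetoacetate, an end product of tyrosine, 0 of 2 genes passed, with 0 at an unadjusted p under 0.05 and 0 by limma-voom: the transferase CG1140 (now SCOT) had a log2 change of 0.00 ± 0.10 and the thiolase CG10932 (now Acat1) one of 0.05 ± 0.08 (SE).

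**Figure D3:**
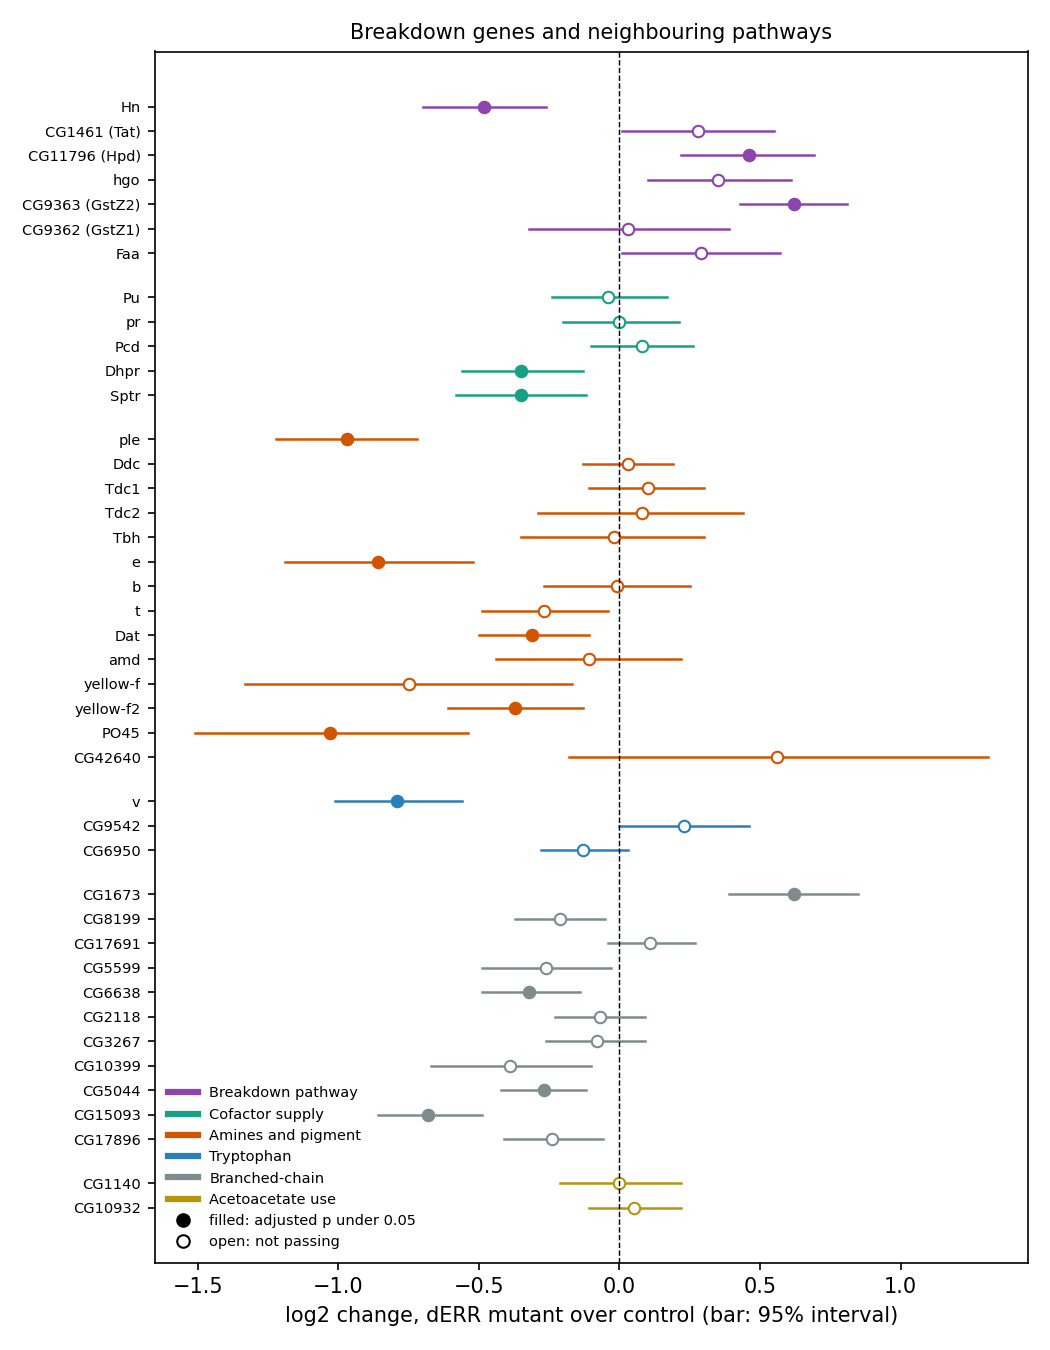
Log2 change (dERR mutant over control, log2(normalized count + 1) scale) of breakdown genes and neighbouring pathways, with 95% intervals; the gene y, listed at 0 in 3 of the 6 libraries, is left out. Filled points passed an adjusted p of 0.05 (limma): Hn lies at -0.48, CG11796 at 0.46 and CG9363 at 0.62, and ple and v lie at -0.97 and -0.79.

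The genes whose profile over the 6 libraries was most like each breakdown gene were found by the root mean square difference of gene-centred log2 values, among 10693 genes with a mean of at least 5 CPM (counts scaled to a common library total). For Hn they were ade2 (now Pfas), an enzyme of purine synthesis, at a difference of 0.028, and CG32573 at 0.036. For CG11796 they were CG6409 and GlcAT-I, a glucuronyltransferase, both at 0.080. For CG1461 they were CG4933 (0.061) and obst-B, a chitin-binding protein (0.068), and for hgo CG11417 (0.064) and the mitochondrial ribosomal protein mRpL14 (0.076). For Faa they were CG14292 (0.048) and the signalling ligand Wnt2 (0.049). By the same measure Hn differed from the other breakdown genes by 0.402 to 0.492, whereas CG1461 and hgo differed by 0.104 and CG1461 and CG11796 by 0.116. These differences largely restate that Hn fell while the other genes had positive changes, and are not a separate result.

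The library totals and the makeup of the flies form the setting of these values. Read totals summed over genes were 13987814 to 16102936, with the smallest value above 0 in each library taken as 1 read. A unit check did not accept the recovered reads of 3 columns, so these totals are estimates. Such a sum can count a read more than once, since some genes, such as CG9510 and CG9515, had the same values in every library. ERR fell in the mutant, with 112, 119 and 107 normalized counts in mutant and 373, 497 and 539 in control libraries (log2 change -2.03 ± 0.13, SE; adjusted p = 3.58e-06, limma). A neighbouring gene that overlaps it by 10 bases, CG7979, had 44.9% of its level over all 6 libraries. CG7979 also fell, with means of 72.93 in mutant and 188.73 in control flies (log2 change -1.363 ± 0.117 SE, adjusted p = 2.38e-05 by limma). Whether shared reads added to either gene was not tested. RNA of whole flies cannot tell fewer cells of a type from less RNA per cell. For the cell type counts that follow, the shares called over all genes were 4.73% higher and 9.47% lower. Of 6 measured fat body genes 5 fell and 1 rose, with a summed level of 17240 to 23177 normalized counts in mutant and 55862 to 73082 in control libraries. Of 7 muscle genes 6 rose (119116 to 139294 in mutant, 85069 to 99079 in control libraries), and all 7 accessory gland genes fell (27830 to 31516 in mutant, 68868 to 82282 in control libraries). Of the 3 oenocyte genes Cyp4g1 fell and made up most of the sum (317748 to 370104 in mutant, 463301 to 495834 in control libraries). The others, desat1 and eloF, did not pass, with log2 changes of -0.13 and 0.14, and eloF had only 5.87 to 15.9 normalized counts. The test was passed among 6 Malpighian tubule genes (1 higher, 1 lower), 5 hemocyte genes (1 lower), 6 gut genes (1 higher, 3 lower) and 8 clock genes (2 higher, 1 lower). Of 7 testis genes 0 passed in limma-trend, with 2 at an unadjusted p under 0.05, which 26.7% of all genes had. Of 9 measured heat shock genes 1, Hsp22, was higher. No marker was at 0 in all libraries. The part of tissue makeup in the changes of Hn and CG11796 was not tested.

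All 5 genes kept the sign of their change under each scaling tried. Scaling to 92 ribosomal protein genes moved the median of all genes by -0.16 (log2), and with it the calls over the table changed to 206 higher and 2039 lower, against 617 higher and 1234 lower as reported, 1293 higher and 992 lower with library size, 850 and 1114 with upper-quartile scaling and 919 and 1080 with quantile normalization. Under the ribosomal protein scaling Hn changed by -0.64 and CG9363 by 0.46, both past the threshold, and CG11796, hgo, Faa and CG1461 had values of 0.30, 0.20, 0.13 and 0.12 that did not pass. Reads of overlapping genes could add to 2 of the 5 genes where the counting did not use strand. CG1461 shares 111 bases with CG13404, a gene at 3.55% of its level, and CG11796 shares 206 bases with CG5872, at 5.71% of its level.

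**Figure D4:**
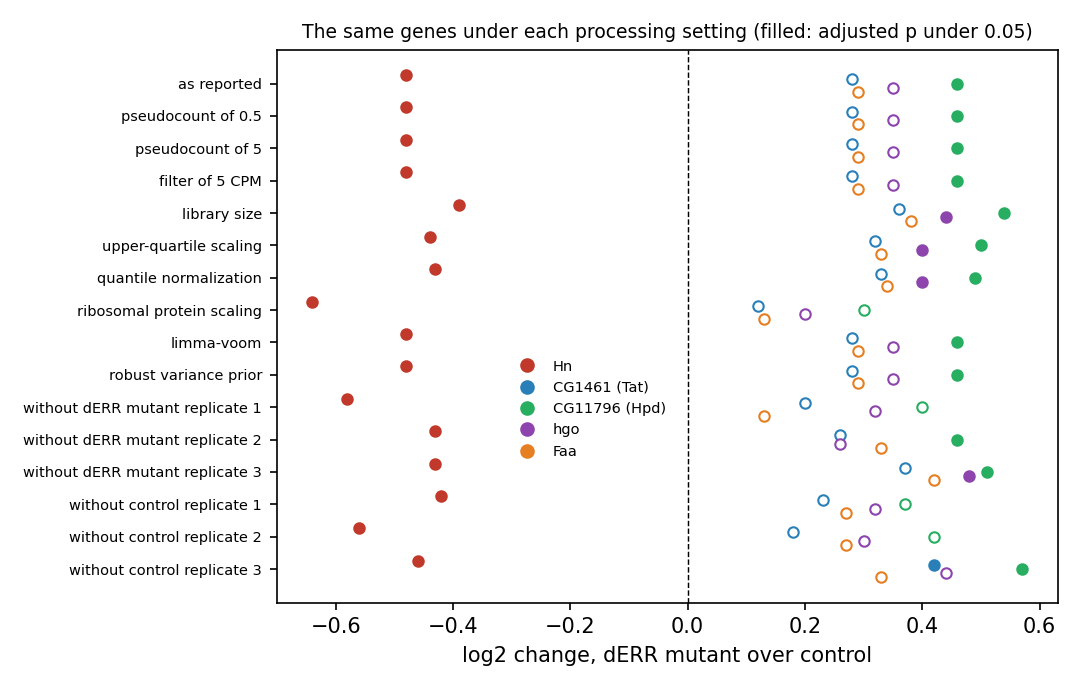
Log2 change (dERR mutant over control) of the 5 breakdown genes as reported and under each of 15 alternatives, filled where the adjusted p was under 0.05 (limma). Hn lies between -0.64 and -0.39 and is filled throughout, and the other 4 genes lie above 0 throughout, with CG11796 open in 4 of the 15.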

How the data were processed

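RNA of 6 libraries was measured, 3 dERR mutant and 3 control. Per the submitters' processing notes, Novoalign, DESeq2 and the dm3 build were used; no versions stand there. The sources used here do not say how reads were counted, whether strand was used, or over which annotation. Some genes, such as CG9510 and CG9515, had the same values in all 6 libraries, so a read may have been given in full to more than 1 gene. The deposited table holds normalized counts as a signal that is never negative: per the values, the authors' read counts divided by 1 size factor per library (100.0% of values were whole multiples of 1 step, tolerance 1e-06). Recovered reads were not accepted for 3 columns by a unit check, so no count model was fitted. The authors' log2 fold changes, their standard errors and test statistic (a score) and p-values stand in the same deposited table.

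Groups were compared with limma 3.58.1 (R 4.3.3), as limma-trend on log2(value + 1), with a group term, no filter and a threshold of 0.05. The log2 changes refer to that scale and are too small for rarely read genes. Python 3.11.15, pandas 2.3.3, numpy 2.4.6, scipy 1.17.1 and matplotlib 3.10.9 were used for tables and figures. The method was tested on simulated data, in which the spread and the number of changed genes were set by hand. It recovered 10% of 50 changes of 1.25-fold, 36% of 50 of 1.5-fold and 98% of 50 of 2-fold, and 5 of 127 calls were false. Changes of 1.25-fold were mostly missed there. The simulated data gave 127 calls against 1851 among all genes here, so the shares recovered cannot be carried over to CG1461, hgo and Faa. Not passing does not show that these genes were unchanged. Libraries within a group were compared pairwise, with recovered reads although 3 columns were not accepted. Where a gene had 20 or more such reads in the pair, mean chi-square was 7.13 to 13.68, above counting noise. Each library was counted as 1 sample, although this spread cannot tell separate cultures from separate preparations of 1 pool of flies.

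The members and lists were chosen with earlier results of these data known. Genes named are all members, ERR, up to 4 passing genes per direction from each neighbouring list (or the 2 most abundant where 0 passed), and the 2 genes with the profile most like each member. Others named, such as Trh, CG9362, yellow-f2 (the fifth passing gene of its list) and list members that did not pass, were chosen after their values were seen. Current symbols come from a name table in which 12526 of 13035 identifiers matched. Of the listed genes, 38 of the 40 in neighbouring lists were matched to the table. Sequences were not used here.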

Additional observations from a re-analysis of the deposited data

How the results depend on the processing

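The alternatives were 2 other pseudocounts, a filter of 5 CPM, 4 other scalings, limma-voom, a robust variance prior and leaving out each library. No paired analysis was possible because the labels give no pairing, and the replicate numbers used here were given in accession order and only name libraries. No sign of a breakdown gene reversed. Genes called over the whole table numbered 1293 higher with library size, 206 higher and 2039 lower with ribosomal protein scaling, and 330 to 563 higher without one library; those lower numbered 926 to 1139 without one library. Breakdown genes called higher were 2 with library size, upper-quartile scaling and quantile normalization (hgo passing at 0.44, 0.40 and 0.40), 0 with ribosomal protein scaling (CG11796 at 0.30), and 0 to 2 without one library. Without one library the log2 changes ran from 0.18 to 0.42 for CG1461, 0.37 to 0.57 for CG11796 and 0.26 to 0.48 for hgo. Cofactor genes called lower were 0 with library size, upper-quartile scaling and quantile normalization and 0 to 1 without one library. Amine and pigment genes called lower were 3 under those 3 scalings, 7 with ribosomal protein scaling and 2 to 6 without one library. With ribosomal protein scaling 2 tryptophan and 7 branched-chain genes were called lower, and 1 branched-chain gene with library size; without one library the branched-chain number was 1 to 3. The causes of these differences were not tested. Of the 7 pathway genes CG9362 had the fewest reads, at 54.6 to 72.7 normalized counts, and the widest interval.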
